A study of Homo sapiens with 6 samples.

Results

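DNA replication genes were examined in the mRNA data of Meg-01, an established megakaryoblastic cell line, with and without C3 (sodium propionate), a short-chain fatty acid that arises when gut bacteria ferment fibre. The 45 genes were chosen by symbol, for origin licensing, the replicative helicase, the polymerases, the sliding clamp and nucleotide supply, and all 45 were found among the 58735 Ensembl genes of the count table. One group of 3 RNAseq libraries came from untreated control cells and the other group of 3 from cells given 500 µM sodium propionate for 48 h. The labels give the 48 h for the C3 libraries and no time for the control libraries. The methods of the study name 24 h and 48 h of incubation before RNA extraction. In a figure legend of the study, the 3 libraries of a group are called technical replicates. The p-values below therefore measure the spread between these libraries, which need not include that between independent cultures. All cells were of this single line, grown in RPMI medium with foetal calf serum, glutamine and what the methods call Penicillin-Streptavidin. No genotype and no further agent is named for either group.

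Before a cell copies its DNA, the origin recognition complex marks the starting points, and CDC6 and CDT1 load the ring-shaped MCM2-7 helicase there, which geminin (GMNN) prevents from happening again in the same cycle. MCM10, CDC45 and the GINS proteins turn the loaded ring into a moving helicase. DNA polymerases then extend primers while held on the DNA by PCNA, the sliding clamp, and ribonucleotide reductase and thymidylate synthase supply the building blocks. Most of these genes are transcribed in proliferating cells under control of E2F factors, and megakaryocytes are known for rounds of replication without cell division.

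After C3 treatment, replication genes were little changed. MCM10, which helps to start the helicase, rose 1.23-fold, and so did RFC1, the large subunit of the complex that loads PCNA. PCNA itself fell to 0.865 of its control level, and RRM1 and RRM2, the subunits of ribonucleotide reductase, fell to 0.857 and 0.848. The other 40 genes did not pass the test, for which edgeR's quasi-likelihood p-value, adjusted over the 15078 genes with enough counts, had to lie below 0.05. Of the 45 genes, 2 were therefore called higher, against 11.0% of all genes tested, and 3 lower, against 8.77%. In both directions together this was 5 of 45 or 11.1%, against 19.8% of all genes tested.

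No replication gene met the gates that the study set for its DEGs, a fold change above 1.3 at an adjusted p-value below 0.01. Of all tested genes, 6.52% met these gates, 5.05% with higher and 1.47% with lower expression. At an unadjusted p-value below 0.05, 5 replication genes were higher and 7 lower in edgeR, beside 16.8% and 15.3% of all tested genes. DESeq2 likewise placed 0 of them past the gates. MCM10 and RFC1 met the gates by library size alone, and without C3 replicate 1 RFC1 did. The log2 fold changes of the 45 genes lay between -0.24 and 0.30, with 18 positive and 27 negative values. Their median was -0.037, beside 0.0021 over all tested genes and -0.032 over the 8489 genes whose mean normalized count lay in the range of the replication genes. Their median size regardless of sign was 0.088, beside 0.158 over all tested genes and 0.119 over those 8489 genes. Of the 8489, 908 were called higher and 1142 lower, 24.15% in all. At an unadjusted p-value below 0.05 in edgeR, 1335 of them were higher and 1869 lower.

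The counts of these genes were high enough to limit the size of change that could have been missed. All 45 passed the count filter, with mean TMM-normalized counts (counts brought to one effective library size) from 227 for POLE2 to 9695 for MCM7, and standard errors (SE) of 0.060 to 0.11 on the log2 scale. For 41 of the 45 genes, or 91.1%, the 95% confidence interval of the change lay wholly within 1.3-fold in either direction. The exceptions were MCM10 and RFC1, whose intervals reached above 1.3-fold, and GINS3 and POLA2, whose intervals reached below. Such intervals were found for 47.5% of all tested genes and for 75.5% of the genes in the same range of counts.

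**Figure D1:**
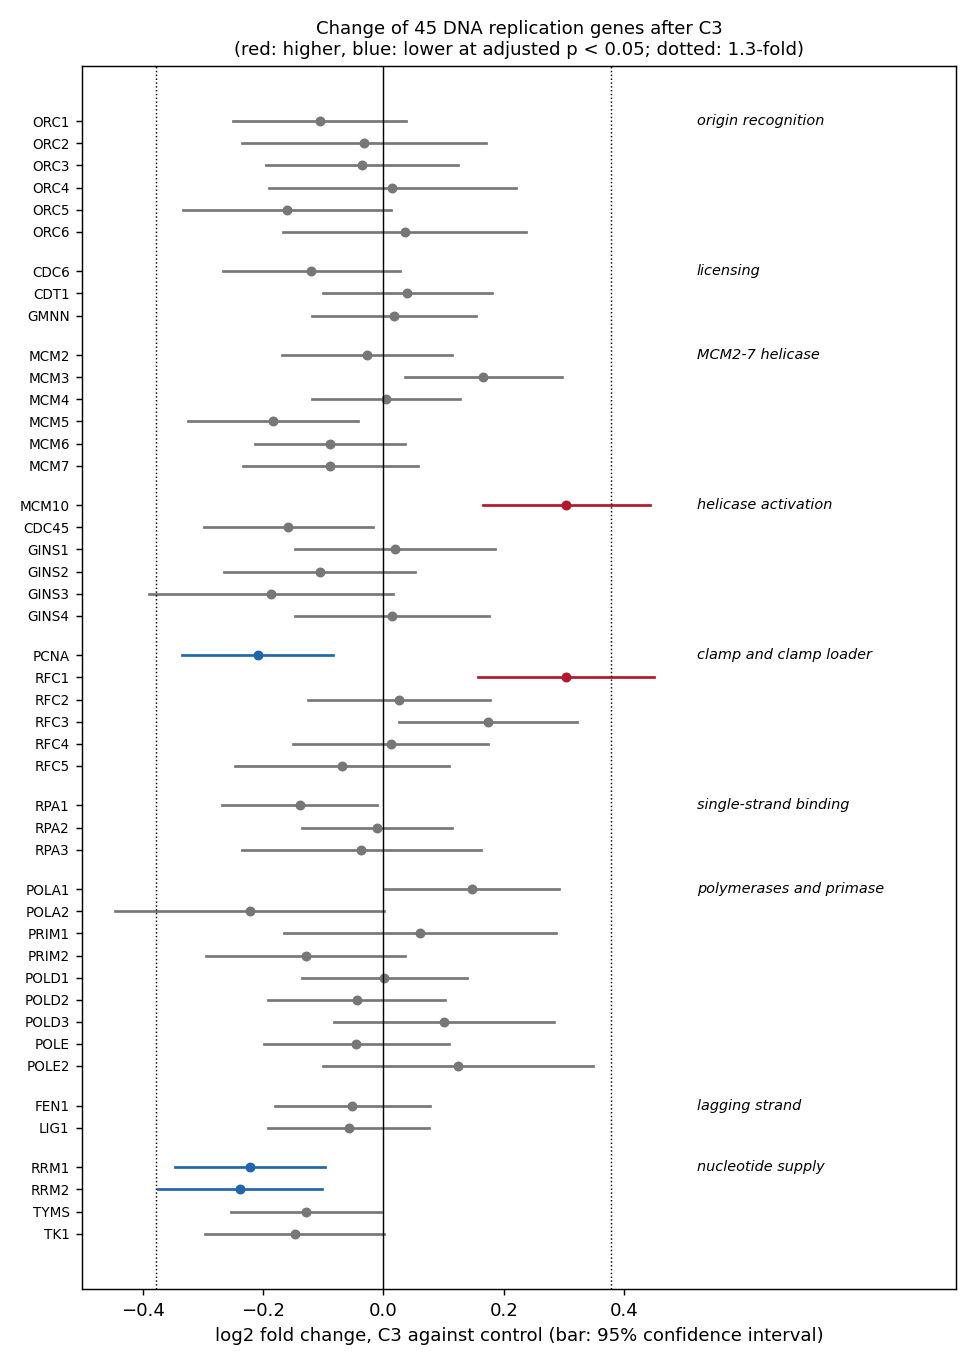
Log2 fold change of each of the 45 DNA replication genes after C3, grouped by role, with 95% confidence intervals from edgeR's fit (x axis, log2 scale). Red and blue mark the 2 genes that were higher and the 3 that were lower at an adjusted p-value below 0.05, and grey the 40 that did not pass. The dotted lines stand at 1.3-fold, and only the points of MCM10 and RFC1 lie beyond 0.3.

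The libraries held between 16159449 and 22821722 counts, of which the 45 genes took 0.561%, 0.550% and 0.535% in the control libraries and 0.569%, 0.552% and 0.556% in the C3 libraries. The TMM factors were 0.966 to 0.985 in control libraries and 0.992 to 1.04 in C3 libraries, so part of each fold change rests on this scaling. By library size alone, the log2 fold changes of all tested genes had a median of 0.076, with 2303 genes called higher and 611 lower in place of 1658 and 1323. The replication genes then had a median of 0.038, with 5 called higher (MCM10, RFC1, MCM3, RFC3 and POLA1) and 0 lower. C3 replicate 1 lay apart from the other C3 libraries in several replication genes. Without it, 3 were higher (MCM10, RFC1 and RFC3) and 8 lower (PCNA, RRM1, RRM2, MCM5, MCM7, CDC45, RPA1 and TK1), 11 of 45 beside 25.2% of all genes tested in that fit. Without C3 replicate 3, only RRM1 was still called lower and MCM10 and RFC1 higher. In that fit, 11.2% of all genes tested were called in either direction.

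The labelled cell type was checked by marker genes. ITGA2B, the platelet integrin subunit CD41, had 11611 to 13336 normalized counts over the 6 libraries, and the megakaryocyte and erythroid factors GATA1, TAL1 and FLI1 had 1759 to 5250, while PF4 was at 0 in every library and GP9 at 33.0 to 46.0. CD3D of T cells and CD14 of monocytes did not exceed 5.30 normalized counts in a library, CD3E of T cells was at 5.88 to 21.6, and MS4A1 and FCGR3A were at 0. CD79A of B cells and CSF1R of monocytes were detected at 52.0 to 77.4 and 76.4 to 106, and the epithelial gene KRT18 at 1259.5 to 1801. Among all these markers, GP1BA, NFE2, KRT18 and HBA2 were called lower after C3 (log2 fold changes of -0.49, -0.38, -0.34 and -0.68) and ITGB3, ALAS2 and COL1A1 higher (0.34, 0.56 and 1.89). In DESeq2, HBA2, ITGB3 and ALAS2 lost the call (adjusted p = 0.080, 0.108 and 0.12) and COL1A1, at 2.39 to 26.7 normalized counts, received no adjusted p-value. The part of these markers in the results below was not tested. In RNA from whole cultures, fewer cells in S phase and less of an mRNA per cell cannot be told apart.

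MCM10 (ENSG00000065328, chromosome 10 of GRCh38, forward strand, 13161558 to 13211110) had normalized counts of 1044, 984 and 1019 in the control libraries and 1176, 1293 and 1289 in the C3 libraries. Each C3 value exceeded each control value. The log2 fold change was 0.30 (SE 0.067, edgeR adjusted p = 0.0021). It was called higher in all 14 alternatives, where the log2 fold change lay between 0.28 and 0.38. Of the other genes that activate the helicase, CDC45 had 1261, 1281 and 1317 normalized counts in control cells and 1225, 1056 and 1179 after C3. The C3 libraries of CDC45 lay below the control libraries, but the log2 fold change of -0.16 (SE 0.069) did not pass the test (adjusted p = 0.11 from edgeR). GINS1, GINS2, GINS3 and GINS4, whose products form one complex with CDC45 and the MCM ring, had log2 fold changes of 0.019, -0.11, -0.19 and 0.014, and none passed.

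RFC1 (ENSG00000035928, chromosome 4, reverse strand, 39287456 to 39366375) had normalized counts of 1539, 1495 and 1684 in control cells and 1730.0, 2054 and 2029 after C3. The groups did not overlap, although C3 replicate 1 lay close to the highest control library. The log2 fold change was 0.30 (SE 0.071, edgeR adjusted p = 0.0032), and RFC1 too was called in all 14 alternatives, at 0.26 to 0.38. The small subunits of the loader had log2 fold changes of 0.026 (RFC2), 0.17 (RFC3), 0.012 (RFC4) and -0.068 (RFC5), and none passed. RFC3 came closest with an adjusted p-value of 0.092 and passed without C3 replicate 1 (0.0057 from edgeR's test).

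PCNA (ENSG00000132646, chromosome 20, reverse strand, 5114953 to 5126626) had the opposite direction to RFC1. It had 4201, 4306 and 4393 normalized counts in control cells and 3883, 3720.0 and 3560.3 after C3, with every C3 library below every control library. The log2 fold change was -0.21 (SE 0.061, edgeR adjusted p = 0.017). This call was kept in 10 of 14 alternatives, and was lost by library size alone (adjusted p = 0.090), without control replicate 2 (0.082), without C3 replicate 2 (0.052) and without C3 replicate 3 (0.14), all from edgeR.

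All 4 genes of nucleotide supply had negative log2 fold changes, with a median of -0.18, and 2 of them passed, beside 8.77% of all tested genes called lower. RRM1 (ENSG00000167325, chromosome 11, forward strand, 4094707 to 4138932), the catalytic subunit of ribonucleotide reductase, had 2397, 2338 and 2381 normalized counts in control cells and 1972, 2070.1 and 2057 after C3. RRM2 (ENSG00000171848, chromosome 2, forward strand, 10120698 to 10211725), the small subunit that peaks in S phase, had 1839, 1858 and 2045 in control cells and 1538, 1714 and 1611 after C3. In both genes the C3 libraries lay below all control libraries. The log2 fold change was -0.22 for RRM1 (SE 0.061, edgeR adjusted p = 0.010) and -0.24 for RRM2 (SE 0.066, edgeR adjusted p = 0.012). By library size alone they were -0.15 and -0.16 and lost the call (adjusted p = 0.097 and 0.101 from edgeR). RRM1 also lost it without control replicate 1 (0.054), and RRM2 without control replicate 3 (0.056) and without C3 replicate 3 (0.062). Within a library, the log2 ratio of RRM1 to RRM2 counts was 0.31 ± 0.084 in control cells and 0.33 ± 0.048 after C3 (SD, n = 3 each). The difference of 0.017 was smaller than the spread of either group and was not tested. Annotated RRM2 pseudogenes held counts equal to 5.32% of those of RRM2, so a small part of its reads is uncertain.

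TYMS, thymidylate synthase, and TK1, the thymidine kinase of dividing cells, did not pass. TK1 had 4342, 4435 and 4197 normalized counts in control cells and 4476, 3705 and 3544 after C3. Its C3 replicate 1 lay above all control libraries and the other C3 libraries below them, with a log2 fold change of -0.15 (SE 0.072, edgeR adjusted p = 0.16) that became -0.25 without that library (adjusted p = 0.0016). TYMS had a log2 fold change of -0.13 (adjusted p = 0.14). A gene on the other strand overlaps 47.9% of its exon bases, and the strand setting of the counting is not given in the sources used here. If strand was not used, reads from the shared bases cannot be told apart from those of that gene, and the same holds for 23.6% of the exon bases of MCM2 and 23.4% of those of GINS4.

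**Figure D2:**
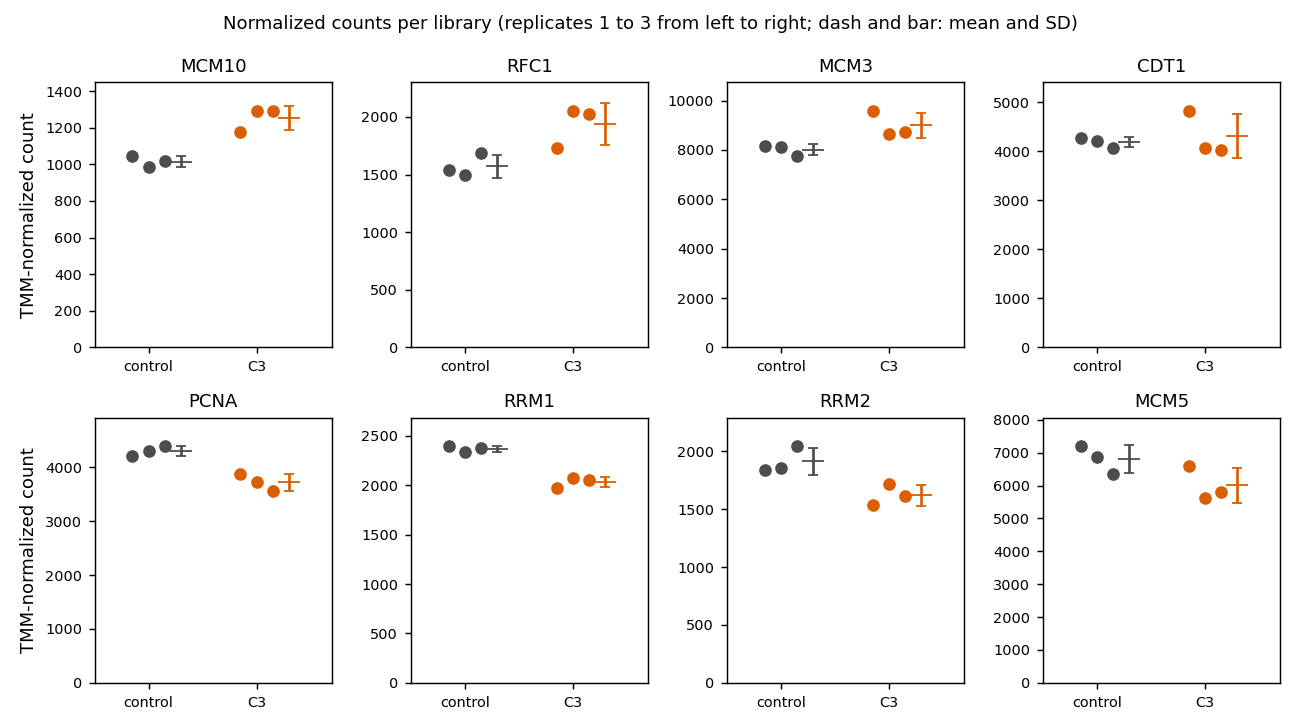
TMM-normalized counts (y axis, from 0) of 8 replication genes in each control and C3 library, with mean and SD (n = 3 libraries each). MCM10 and RFC1 lie higher after C3 and PCNA, RRM1 and RRM2 lower, without overlap of the groups. MCM5 and CDT1 overlap between the groups, and MCM3 has its highest value in C3 replicate 1.

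Promoter sequences are shown for the 5 called genes, to set side by side what lies upstream of them, and for MCM6, an uncalled gene with 4 E2F words. They are from RefSeq (GRCh38.p14), read 5′ to 3′ on the strand of the gene, and each ends before the transcription start. PCNA and RRM2 have more than one start in the table, and a single window is shown for each. Capitals mark the E2F words TTTCCCGC, TTTCGCGC, TTTGCCGC and TTTGGCGC and the word CCAAT, the binding sequence of NF-Y, each on either strand. E2F words can overlap one another, as they do in MCM6.
PCNA, chr20:5126648-5126707, reverse strand: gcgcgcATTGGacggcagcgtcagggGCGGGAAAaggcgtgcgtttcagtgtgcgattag
RRM1, chr11:4094625-4094684, forward strand: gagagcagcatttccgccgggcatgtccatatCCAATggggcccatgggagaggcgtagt
RRM2, chr2:10122609-10122678, forward strand: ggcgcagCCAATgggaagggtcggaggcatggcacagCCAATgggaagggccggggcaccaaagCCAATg
MCM10, chr10:13161428-13161487, forward strand: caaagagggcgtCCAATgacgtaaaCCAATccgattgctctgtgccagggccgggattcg
RFC1, chr4:39366513-39366572, reverse strand: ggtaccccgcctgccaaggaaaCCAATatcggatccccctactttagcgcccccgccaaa
MCM6, chr2:135876514-135876603, reverse strand: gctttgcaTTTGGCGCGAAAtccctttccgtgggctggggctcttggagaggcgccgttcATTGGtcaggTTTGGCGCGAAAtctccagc

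The windows of 250 bases before to 50 after the start were matched for 39 of the 45 genes, as 50 windows. An E2F word was found in 19 of these 50 windows, or 38.0%, beside 3.31% of all 35116 windows of the same length and 4.77% of the windows of tested genes. CCAAT was found in 29, or 58.0%, beside 34.6% and 34.5%. Of the 5 called genes, only PCNA has one, while all 5 have CCAAT, which occurs 3 times in the RRM2 stretch. The 19 genes with an E2F word had a median log2 fold change of -0.045, and the 20 without one -0.048. Of them 1 and 4 were called, beside 19.8% of all tested genes, and the difference between these counts was not tested. MCM6, with its paired words, had a log2 fold change of -0.088 that did not pass (adjusted p = 0.34 from edgeR).

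The MCM2-7 ring had no called gene. MCM7 was the most abundant by count, with 10159.7, 10313 and 9497 normalized counts in control cells and 10471, 8483 and 9245 after C3, and a log2 fold change of -0.088 (adjusted p = 0.42 from edgeR). C3 replicate 1 lay above all control libraries and the other C3 libraries below them. MCM2 (-0.027), MCM4 (0.0036) and MCM6 (-0.088) were likewise near their control levels. MCM3 and MCM5, which were picked for description after their values were seen, had opposite signs. MCM3 had 8150.5, 8126 and 7771 normalized counts in control cells and 9589, 8665 and 8735 after C3, all above the control libraries, with a log2 fold change of 0.17 (SE 0.063, edgeR adjusted p = 0.065). MCM5 had 7197, 6880.0 and 6349 in control cells and 6591, 5605 and 5807 after C3, with overlap, a log2 fold change of -0.18 (SE 0.069, edgeR adjusted p = 0.062). Both lay just outside the threshold and passed in DESeq2, limma-voom and the fit without a count filter. Of the 14 alternatives, MCM3 was called in 5 and MCM5 in 6. With each library left out in turn, MCM3 was called in 0 fits and MCM5 in 2, with edgeR adjusted p-values of up to 0.17 and 0.27.

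Shares within the ring do not depend on the scaling of libraries. MCM3 took 20.0%, 20.3% and 20.4% of all MCM2 to MCM7 counts in the control libraries and 22.9%, 23.5% and 23.0% in the C3 libraries. MCM5 took 17.7%, 17.2% and 16.7% in control cells and 15.8%, 15.2% and 15.3% after C3. The log2 ratio of MCM3 to MCM5 counts was 0.24 ± 0.056 in control cells and 0.59 ± 0.044 after C3 (SD, n = 3 each), a difference of 0.35 in which no C3 library overlapped a control library. MCM2 held 13.6% of the counts in both groups. Among the loader subunits, RFC1 took 33.5%, 33.4% and 34.6% of the RFC1 to RFC5 counts in control cells and 35.6%, 38.7% and 38.0% after C3, and RFC5 took 9.27% ± 0.166 and 7.96% ± 0.590 (SD, n = 3 each). These shares were chosen for description after the values of the genes were known and were not tested.

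**Figure D3:**
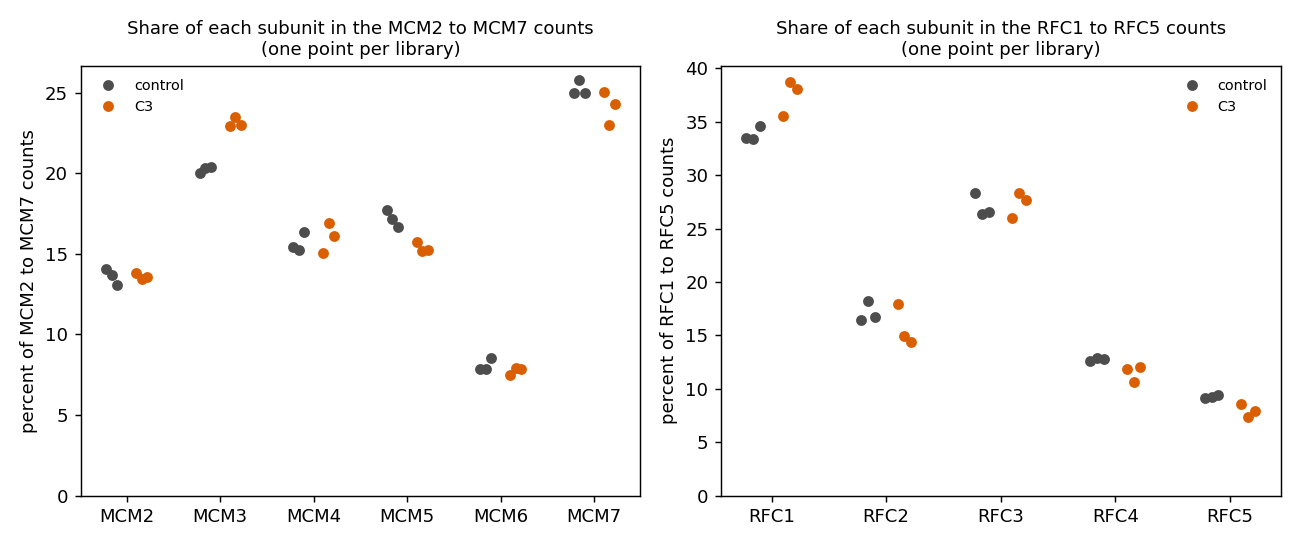
Share of each subunit (y axis, percent) in the summed counts of MCM2 to MCM7 (left) and RFC1 to RFC5 (right), one point per library. The MCM3 share lies at 20.0% to 20.4% in control and 22.9% to 23.5% in C3 libraries, and the RFC1 share at 33.4% to 34.6% and 35.6% to 38.7%.

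Origin recognition and licensing genes showed no called change. The 6 ORC genes had log2 fold changes between -0.16 (ORC5) and 0.035 (ORC6). ORC1, the subunit most closely tied to the cell cycle, had 777, 810.2 and 781 normalized counts in control cells and 719, 738 and 742 after C3. Its C3 libraries all lay below the control libraries, with a log2 fold change of -0.11 (adjusted p = 0.32 from edgeR). CDC6 had a log2 fold change of -0.12 (adjusted p = 0.26).

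CDT1 had 4280.0, 4219 and 4067 normalized counts in control cells and 4828, 4066 and 4034 after C3. GMNN, which binds and blocks CDT1, had 1088, 1070.0 and 1136 in control cells and 1089, 1153 and 1091 after C3. In both genes the groups overlapped, and C3 replicate 1 held the highest CDT1 value. The within-library log2 ratio of CDT1 to GMNN was 1.93 ± 0.079 in control cells and 1.95 ± 0.174 after C3 (SD, n = 3 each). The difference of 0.019 had a two-sided exact permutation p-value of 0.9, where the smallest value that 3 libraries against 3 allow is 0.1.

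The polymerases, the primase and the genes of single-strand binding and of the lagging strand had no called member. POLD1, the catalytic subunit of polymerase delta, had 5476, 5142 and 4691 normalized counts in control cells and 5413, 4908 and 5013 after C3, a log2 fold change of 0.0015 with a 95% interval of -0.14 to 0.14. POLA1 and POLA2, of the polymerase that makes primers together with PRIM1 and PRIM2, had log2 fold changes of 0.15 and -0.22 (adjusted p = 0.15 and 0.16 from edgeR), each without overlap of the groups. Another gene of the same strand shares 16.8% of the exon bases of POLA2, 15.1% of those of PRIM1 and 8.63% of those of POLD1. PRIM1 (0.061), PRIM2 (-0.13), POLD2 (-0.044), POLD3 (0.10), POLE (-0.045) and POLE2 (0.12) did not pass either.

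RPA1, which coats single-stranded DNA, had 7031, 6873 and 7293 normalized counts in control cells and 6821, 6261 and 6167 after C3, all below the control libraries. Its log2 fold change of -0.14 (adjusted p = 0.12 from edgeR) passed without C3 replicate 1 (-0.18, adjusted p = 0.012). RPA2 and RPA3 were at -0.011 and -0.037. FEN1, the flap nuclease that trims Okazaki fragments, had 3432, 3383 and 3494 in control cells and 3526, 3113 and 3309 after C3, and a log2 fold change of -0.052. LIG1, the ligase that joins the fragments, was at -0.057. Over all 45 genes, the C3 libraries lay wholly above the control libraries in 4 and wholly below in 11, beside 17.5% and 16.9% of all tested genes. These 15 genes were 33.3% of the 45, beside 34.4% of all tested genes. Among the 8489 genes in the same range of counts, 1310 lay wholly above and 1993 wholly below, 38.9% in all.

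Levels were compared between genes per length, as normalized counts per kilobase of merged exons. In control cells they ran from 3065 ± 68.6 for PCNA, followed by TK1 (2344 ± 64.9), MCM3 (2199 ± 58.3) and MCM7 (2014 ± 87.4), down to 22.9 ± 1.96 for POLA2 (SD, n = 3). TYMS, FEN1 and CDT1 came next with 1568 ± 57.0, 1563 ± 25.3 and 1518 ± 39.8 and did not differ beyond their spread. By this measure, the subunits of one complex were not at one level. RPA1 and RPA2 stood at 1286 ± 38.7 and 910.2 ± 6.22 but RPA3 at 104 ± 7.55, and RRM1 at 560.4 ± 7.19 but RRM2 at 209 ± 12.5. The ORC genes ran from 252.9 ± 5.83 (ORC1) to 48.2 ± 5.92 (ORC4). After C3, PCNA remained the highest at 2652 ± 115 and POLA2 the lowest at 19.7 ± 1.55, and MCM3 (2468 ± 141) came before TK1 (2118 ± 270). Merged exons include those of rare transcripts, which lowers the level of genes with many of them. RRM1 and RRM2 had mean normalized counts of 2372 and 1914 in control cells, over merged exons of 4233 and 9153 bases. POLA2 had merged exons of 12006 bases, while PRIM1 and POLE2 had fewer counts in control cells (228 and 218, beside 274 for POLA2). These contrasts therefore rest in part on the lengths.

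**Figure D4:**
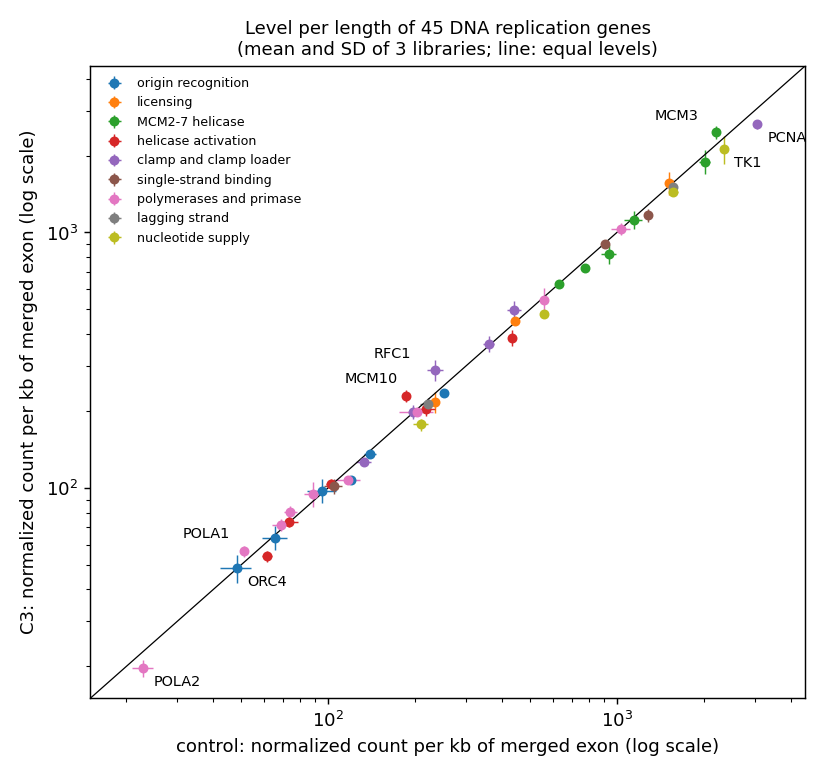
Mean level per length of the 45 genes in control cells (x axis) and after C3 (y axis), in normalized counts per kilobase of merged exons on log scales, with SD over 3 libraries and a line of equal levels. The points span 22.9 (POLA2) to 3065 (PCNA) in control cells and stay near the line, with MCM10 and RFC1 above it.

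Other genes of replication and S phase were read from a list of 51 genes that belong to none of the roles above. In this list 1 gene was called higher and 7 lower, 15.7% in all, beside the 19.8% of all tested genes. The median log2 fold change was -0.059. The 3 smallest p-values belonged to DCTD, DTYMK and DONSON, all lower. DCTD, the dCMP deaminase that feeds thymidylate synthesis, had 1733, 1600.2 and 1748 normalized counts in control cells and 1410.2, 1352 and 1420.2 after C3, with a log2 fold change of -0.28 (SE 0.064, edgeR adjusted p = 0.0027). DTYMK, thymidylate kinase, had a log2 fold change of -0.26 (SE 0.064, edgeR adjusted p = 0.0047), and DONSON, a factor of helicase assembly and fork stability, of -0.32 (SE 0.086, edgeR adjusted p = 0.0099). By library size alone DCTD and DTYMK were still called (-0.21 and -0.19) and DONSON was not (-0.24, adjusted p = 0.073 from edgeR). The other called genes were DNMT1, the maintenance DNA methyltransferase, at 0.20, and CHTF8, POLE3, POLE4 and CCNA2 at -0.20, -0.18, -0.40 and -0.18, which are named because the list had few calls. With scaling by library size alone, CHTF8, POLE3, POLE4 and CCNA2 lost the call (adjusted p = 0.13, 0.26, 0.070 and 0.19 from edgeR), and POLE4 lost it in DESeq2 too (0.068). Together with RRM1, RRM2, TYMS and TK1, 14 genes of nucleotide supply were measured. Of these, 4 were lower (RRM1, RRM2, DCTD and DTYMK) and 0 higher, 28.6% in all. This stands beside 19.8% of all tested genes and 24.15% of the 8489 genes in the count range of the replication genes. The median was -0.11, and 13 values were negative. Negative values were found for 7483 of the 15078 tested genes and for 4893 of those 8489. At an unadjusted p-value below 0.05 in edgeR, 1 of the 14 was higher and 5 were lower, beside 16.8% and 15.3% of all tested genes. DUT, which removes dUTP, had the positive value (0.17, adjusted p = 0.061 from edgeR).

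Of 19 genes of the E2F and RB families and their partners, which regulate many replication genes, edgeR called 0 higher and 1 lower. This was 5.26% of the list beside 19.8% of all tested genes, with a median log2 fold change of -0.057. At an unadjusted p-value below 0.05, 0 were higher and 2 lower in edgeR, beside the same 16.8% and 15.3%. The gene called by edgeR was E2F7, a repressor of the family, at 205, 153 and 162 normalized counts in control cells and 129, 133 and 123 after C3. Its log2 fold change of -0.44 (SE 0.14, edgeR adjusted p = 0.024) lost the call by library size alone (-0.37, adjusted p = 0.074) and in DESeq2 (adjusted p = 0.069). RBBP4 (-0.14) and TFDP2 (0.15) had the next smallest p-values and did not pass in edgeR. DESeq2 called 0 genes of this list higher and 1 lower, which was RBBP4 (-0.15, adjusted p = 0.041). Of the 28982 genes in the DESeq2 fit, 7.99% were called in either direction. Genes that DESeq2 gave no adjusted p-value, such as LIN37 of this list, count as not called in that share. It is therefore not directly comparable with the share from edgeR. E2F1 was at -0.053 (adjusted p = 0.67) and E2F2 at -0.081 (adjusted p = 0.41 from edgeR).

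Among 16 replication checkpoint genes, 1 was called higher and 3 lower, 25.0% of the list beside 19.8% of all tested genes. CDKN1A, which encodes the CDK inhibitor p21 and met the gates for DEGs, had 763, 751 and 779 normalized counts in control cells and 1188, 1024 and 1093 after C3. Its log2 fold change was 0.53 (SE 0.072, edgeR adjusted p = 8.2e-06), the largest change among the checkpoint genes. CDC25B, a phosphatase that activates CDKs, had a log2 fold change of -0.25 (SE 0.062, edgeR adjusted p = 0.0059), and RHNO1, a partner of the checkpoint clamp, was lower at -0.29. By library size alone RHNO1 lost the call (-0.22, adjusted p = 0.11 from edgeR). CHEK1 (-0.12) did not pass.

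Of 15 tested markers of G2 and M phase, 3 were called higher and 4 lower, 46.7% of the list beside 19.8% of all tested genes. MKI67, the Ki-67 proliferation marker, had 1123, 1236 and 1034 normalized counts in control cells and 1403, 1880 and 2222 after C3, with a log2 fold change of 0.70 (SE 0.10, edgeR adjusted p = 2.1e-05). CENPF rose by a log2 value of 0.42 (adjusted p = 0.0024), although the groups overlapped. PLK1 had a log2 fold change of -0.24 (adjusted p = 0.010 from edgeR), and CCNB1, CCNB2 and FOXM1 were the other lower genes (-0.21, -0.24 and -0.18). By library size alone 3 were higher and 1 lower, as CCNB1, CCNB2 and FOXM1 lost the call (adjusted p = 0.12, 0.080 and 0.25 from edgeR). TOP2A, at 0.21, was the third higher gene. These changes were measured beside those of the replication genes, and their part in them was not tested.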

How the data were processed

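RNA of 6 Meg-01 libraries (3 control, 3 C3) was sequenced. Per the labels and methods, the authors cleaned reads (fastp), aligned them to GRCh38 (STAR 2.6.1d) and obtained counts by gene (featureCounts 1.5.0-p3). The table they deposited holds these counts as whole numbers that were not normalized. Which annotation release and which strand setting were used is not given in the sources used here. Columns were matched to samples by name, and all rows name a gene.

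Here, 15078 genes reaching 10 counts in 3 or more of the 6 libraries were kept, which held 99.9% of all counts. They were scaled by TMM and compared by the quasi-likelihood test of edgeR (version 4.0.16 under R 4.3.3). P-values were adjusted after Benjamini and Hochberg over all of them. Normalized counts are counts over the effective library size, multiplied by its mean. Intervals are at 95% and cover the spread between libraries and counting error. The methods were tested on simulated data. Symbols, exon lengths and overlaps are from GENCODE release 44.

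The genes and lists were chosen with earlier results of these data known. Values per library are given for called genes, for the gene with the highest counts in each role, and for CDT1 and GMNN. MCM3 and MCM5 were added after their values were seen. In the other lists the 3 smallest p-values were named, except for an item that is not reported here, and further genes are marked or were chosen after their values were seen. Alternatives were RLE factors, library size alone, DESeq2 (1.42.0), limma-voom (limma 3.58.1), omitting the count filter, requiring a mean count of 50, a replicate block and leaving out each library. Leaving out mitochondrial genes was added after seeing the data.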

Additional observations from a re-analysis of the deposited data

How the results depend on the processing

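MCM10 and RFC1 were called higher in all 14 alternatives. Of 630 values of the 45 genes under these alternatives, 603 kept their side of the threshold, and 32 genes were called in no fit. In 43 values of 20 genes the sign changed without a call in either fit, all in genes whose log2 fold change was at most 0.068 in size. Library size alone and leaving out C3 replicate 1 each moved 6 of the 45 genes across the threshold. Library size alone gave 5 higher and 0 lower replication genes, 2 of them past the gates for DEGs, a median of 0.038, 5 higher and 2 lower genes in the list of other replication and S-phase genes, 1 higher and 0 lower among E2F and RB genes, and 1 lower G2 and M phase marker. A mean count of at least 50 gave 2 higher genes in the list of other replication genes. Of all genes tested, 19.3% were called by library size alone and 22.3% with a mean count of at least 50. With each library left out, 2 to 3 replication genes were higher and 1 to 8 lower (most without C3 replicate 1, fewest without C3 replicate 3). The share of all tested genes that was called ran from 11.2% without C3 replicate 3 to 25.2% without C3 replicate 1. From 0 to 1 replication genes passed the gates for DEGs as higher. In the same fits, other replication genes ranged from 0 to 4 higher and 3 to 7 lower, E2F and RB genes from 0 to 1 higher and 0 to 2 lower, and lower G2 and M phase markers from 0 to 5. The causes were not tested.

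Replicate numbers did not pair the libraries. Deviations of same-numbered libraries from their group means had correlations of 0.015, -0.044 and 0.029, and not every library correlated best with its own number. With the replicate block, 2 replication genes were higher and 4 lower, and 3 of the other replication genes were higher. In that fit 22.6% of all tested genes were called, beside 19.8% without the block. The log2 ratio of CDT1 to GMNN differed between the groups by 0.019, and by -0.079 to 0.086 with each library left out. The mean of the differences between same-numbered libraries equals this 0.019 by arithmetic, so the block could not change it. Depth limits the least abundant genes most, such as POLE2 and PRIM1, with standard errors of 0.11 on the log2 scale.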
